A study of Mus musculus with 4 samples.

Results

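Border-associated macrophages are the resident macrophages of the perivascular spaces, meninges and choroid plexus, as distinct from microglia, the macrophages inside the brain tissue. Here they were picked out of single-cell RNA profiles of the mouse cortex as the barcodes with at least 4 UMIs (unique molecular identifiers, each standing for 1 captured RNA molecule) of Lyve1, F13a1, Cd163 and Cbr2 together and with P2ry12, a purine receptor of microglia, below 0.25% of their UMIs. Barcodes first had to hold at least 500 UMIs and at most 10% mitochondrial UMIs. Of 61371 barcodes that passed, 4155 (6.77%) met the rule. They numbered 1123 and 846 in the Hevin libraries and 1316 and 870 in the mCherry libraries.

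The cells came from wild-type mice injected into the cortex on the day of birth or the day after with an adeno-associated virus carrying Hevin, or mCherry as the control. Hevin is a secreted matricellular protein of astrocytes, encoded by Sparcl1, and mCherry is a fluorescent protein. Both were driven by GfaABC1D, a promoter of astrocytes, so that macrophages were not the cells meant to carry the transgene. At postnatal day 15 the cortices were dissociated with inhibitors of transcription and translation present, CD11b-bearing cells were selected on magnetic beads, and libraries were made by PIPseq, 2 per group. Neither the number of animals in a library nor their sex is labelled, so p-values measure the spread between these libraries, which may be technical.

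Macrophages of the brain borders line vessels and meninges and take up material from the fluid around them through scavenger and lectin receptors such as Mrc1, Cd163, Lyve1 and Stab1. Like microglia they depend on signalling through Csf1r. A fraction of them presents antigen on MHC class II and in the adult is replenished in part by monocytes that enter through Ccr2.

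Depth was not common to the libraries. The deposited matrices held between 49781430 and 67832685 UMIs each, and the lowest barcode stood at 965 and 2178 UMIs in the Hevin libraries and at 2038 and 2993 UMIs in the mCherry libraries. Border macrophages had median totals of 3247 and 4541 UMIs in the Hevin libraries and of 4217 and 4849.5 UMIs in the mCherry libraries. Over the border macrophages, the replicates of a group differed by more than counting noise, by a chi-square that averaged 7.30 over genes for the Hevin libraries and 5.60 for the mCherry libraries. Of the member barcodes, 4 were also kept barcodes of another library. Xist, transcribed from the inactive X chromosome of females, stood at 0.235 and 789 CPM (the gene's share of all UMIs of the same cells and library, scaled to 1000000) in Hevin border macrophages and at 373 and 762 CPM in mCherry border macrophages. Uty, a gene of the Y chromosome, stood at 74.7 and 1.11 CPM with Hevin and at 38.1 and 0.923 CPM with mCherry. The libraries thus differed in sex-linked transcripts within both groups, and the part of sex in the comparisons below was not tested. Sparcl1 itself stood at 44.7 and 50.5 CPM in Hevin border macrophages, against 140.4 and 176 CPM in mCherry border macrophages. Whether transcripts of the viral Hevin count under Sparcl1 is not stated.

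The 4 genes that chose the cells are described without a test. F13a1, the A subunit of coagulation factor XIII, stood at 2152 and 2695 CPM in Hevin border macrophages and at 2088 and 2352 CPM in mCherry border macrophages. Cbr2, a carbonyl reductase, stood at 1477 and 1703 CPM with Hevin and at 1498 and 1647 CPM with mCherry. Lyve1, a hyaluronan receptor, stood at 1144 and 1361 CPM with Hevin and at 1073 and 1224 CPM with mCherry. Cd163, the receptor for haptoglobin-bound haemoglobin, was lowest in the first Hevin library, at 598 and 978 CPM with Hevin, against 908 and 1018 CPM with mCherry. All 4 genes were detected in 34.0% and 51.5% of Hevin border macrophages and in 63.0% and 67.2% of mCherry border macrophages, at the unequal depths given above. P2ry12, which the rule caps, stood at 659.7 and 576 CPM in Hevin border macrophages, against 1061 and 888 CPM in mCherry border macrophages.

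Genes that the rule did not use matched the label. The same libraries held 3 other sets of cells for comparison, all with fewer than 4 UMIs of the rule genes. They were 35351 P2ry12-high cells (P2ry12 at or above 0.25%), which are microglia by that marker, 12105 cells of an Apoe-high set (low P2ry12, Apoe at least 1.5% of UMIs, Ms4a7 detected, Sall1 absent) and 963 endothelial-marker cells (low P2ry12, at least 4 UMIs of Cldn5, Flt1, Pecam1, Cdh5 and Itm2a). Mrc1, the mannose receptor and another marker of border macrophages, stood at 3915 and 4546 CPM in Hevin border macrophages and at 3815 and 4265 CPM in mCherry border macrophages, whereas P2ry12-high cells held 279 and 212 CPM with Hevin and 135 and 116 CPM with mCherry. With each cell thinned to 1000 UMIs, Mrc1 was detected in 92.3% and 93.4% of Hevin and in 92.9% and 94.0% of mCherry border macrophages. The share in endothelial-marker cells, whose rule does not leave out cells of the Apoe-high set, was 17.9% and 8.88% with Hevin and 8.42% and 4.28% with mCherry, at median depths of 3771.5 and 5964 UMIs with Hevin and 5755 and 6229 UMIs with mCherry before thinning. Pf4, a platelet-type chemokine, was detected in 92.3% and 90.2% of thinned Hevin and in 90.8% and 90.9% of thinned mCherry border macrophages.

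**Figure D1:**
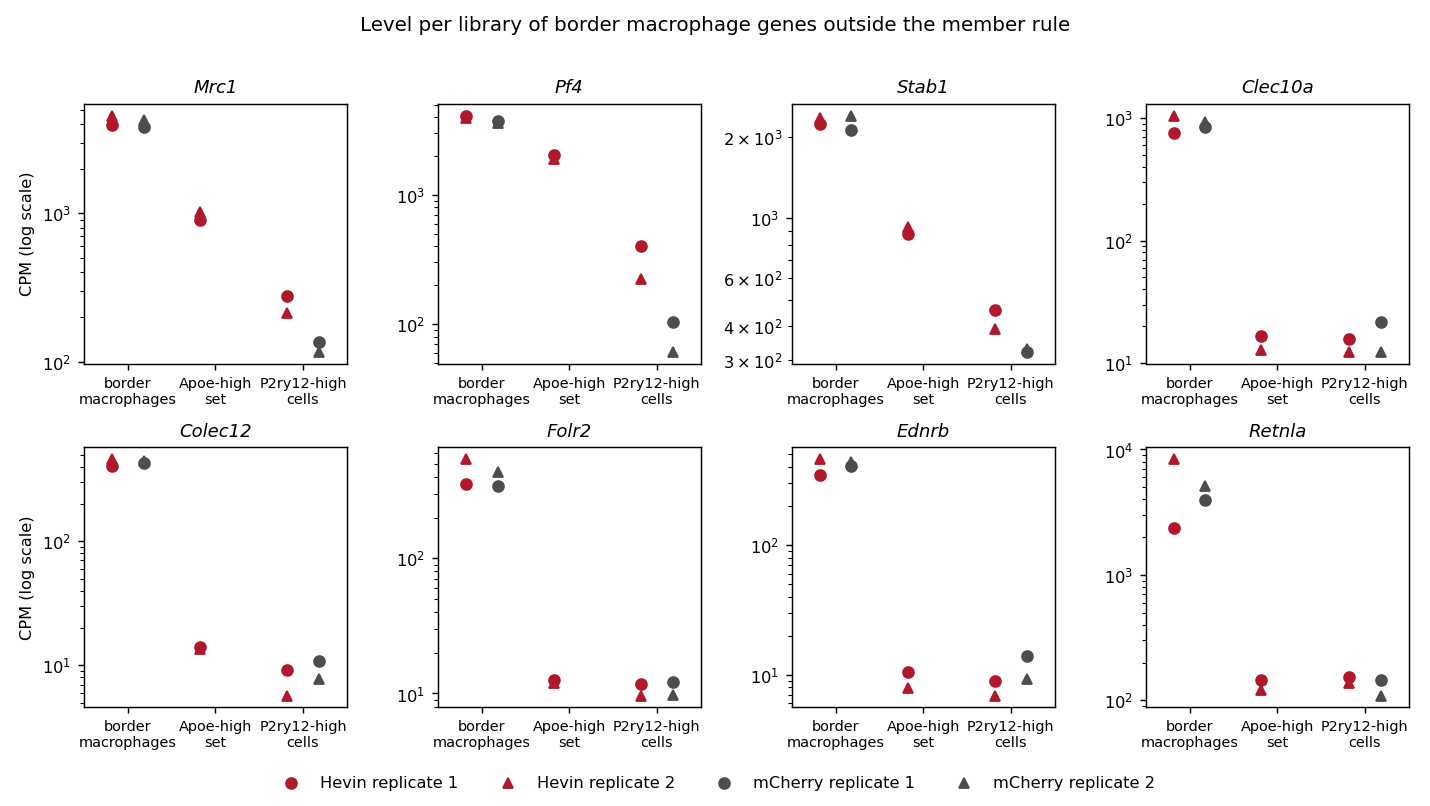
Level of 8 genes outside the member rule, in CPM on a log scale, per library, in border macrophages, the Apoe-high set (Hevin libraries, since the mCherry libraries held 29 and 16 such cells) and P2ry12-high cells; red marks Hevin and grey mCherry libraries. Every gene is highest in border macrophages in all 4 libraries, and Mrc1, Pf4 and Stab1 stand at intermediate levels in the Apoe-high set.

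Ranked by the lowest ratio over P2ry12-high cells in any library (10 CPM added to both), the leading genes were lectins and uptake receptors. Clec10a, a galactose-type lectin, led at 27.0-fold, with 762 and 1048 CPM in Hevin and 842 and 934 CPM in mCherry border macrophages. Colec12, a scavenger receptor of the collectin family, followed at 20.8-fold and the Notch effector Rbpj at 18.6-fold. Then came the endothelin receptor Ednrb (17.4-fold), the ficolin Fcna (16.1-fold), the folate receptor Folr2 (15.9-fold), the lectins Mgl2 and Cd209f (15.8-fold each), Retnla (14.6-fold), the complement regulator properdin, Cfp (13.9-fold), and Mrc1 (13.6-fold). Lgals1, Cd36, Wfdc17, C4b, Cd38, Ahnak, Dab2, Pf4 and Igf1 completed the first 20, down to 9.86-fold. Of 3402 genes with at least 50 CPM in the border macrophages of every library, 110 stood at least 4-fold above P2ry12-high cells in every library.

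Against the Apoe-high set of the Hevin libraries, Clec10a (28.9-fold), Colec12 and Ednrb (17.3-fold each), Fcna (17.1-fold), Mgl2 (16.3-fold), Folr2 (16.2-fold), Cd209f (15.9-fold) and Retnla (15.4-fold) were again highest in border macrophages. Mrc1 and Pf4 separated these sets less, with 908 and 1019 CPM of Mrc1 and 2048 and 1907 CPM of Pf4 in the Apoe-high set. Ms4a7, a tetraspan membrane protein whose detection defines the Apoe-high set, stood at 689 and 686 CPM in Hevin border macrophages and at 1172 and 1275 CPM in that set. Tmem52 (3.58-fold), Cxcl16 (3.42-fold), Apoc1 (3.41-fold), Cadm1, Pmepa1, Gal3st4, Mmp14 and AU020206 (3.11-fold) were the genes that stood furthest above border macrophages in the Apoe-high set.

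Cells at the edge of the rule held less Mrc1. The 92 and 32 Hevin cells with exactly 4 UMIs of the rule genes held 1204 and 833 CPM of Mrc1 and 24009 and 25492 CPM of Apoe, and the 207 and 136 Hevin cells just outside, with 3 UMIs, held 760.1 and 716 CPM of Mrc1 and 22301 and 21681 CPM of Apoe. In the mCherry libraries 31 and 13 cells had exactly 4 UMIs and held 278 and 276 CPM of Mrc1, and the 71 and 25 cells just outside held 275 and 338 CPM. Cells with 5 or more held 4212 and 4729 CPM of Mrc1 with Hevin and 3991 and 4383 CPM with mCherry. On the other edge, cells with enough rule genes but with P2ry12 at or above 0.25% made up 2.09% and 2.08% of all cells with at least 4 rule-gene UMIs in the Hevin libraries and 9.92% and 10.3% in the mCherry libraries.

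A small fraction of the border macrophages carried MHC class II. In cells thinned to 1000 UMIs, at least 2 UMIs of H2-Aa, H2-Ab1, H2-Eb1 and Cd74 together were found in 8.20% and 8.51% of Hevin border macrophages (91 and 72 cells) and in 6.53% and 5.40% of mCherry border macrophages (86 and 47 cells). At full depth the share with at least 4 UMIs was 8.83% and 13.4% with Hevin and 11.1% and 12.3% with mCherry, so no order between the groups is read from it. The shares in endothelial-marker cells at the thinned depth were 4.22% and 4.73% with Hevin and 3.70% and 2.67% with mCherry.

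The cells with class II also held more Ccr2, S100a4 and Cd209a and less Mrc1. Ccr2, the chemokine receptor of inflammatory monocytes, stood at 624 and 632 CPM in Hevin and 629 and 801 CPM in mCherry cells with class II. Border macrophages without a thinned class II UMI held 10.6 and 9.64 CPM of Ccr2 with Hevin and 9.37 and 6.59 CPM with mCherry. The other monocyte markers did not rise with Ccr2 in every library. With class II, Ly6c2 stood at 8.26 and 4.27 CPM with Hevin and 0 and 0 CPM with mCherry. Without class II it stood at 9.57 and 6.33 CPM with Hevin and 15.8 and 28.9 CPM with mCherry. Plac8 had no common direction, and Chil3 and F10 held at most 5 UMIs per library in either split. Ear2 and Ear1, ribonucleases of the eosinophil-associated family, were at least 27.7-fold and 22.5-fold higher in class II cells in every library (10 CPM added). S100a4 (22.9-fold), S100a6 (20.8-fold), Plbd1 (13.6-fold), the lectin Cd209a (11.8-fold), Lgals3 (11.6-fold), Napsa (9.84-fold), the class II loading factor H2-DMb1 (9.82-fold), Lsp1 (9.05-fold) and lipoprotein lipase, Lpl (8.15-fold), followed. Mrc1 was lower in cells with class II, at 1816 and 2505 CPM with Hevin and 2329.5 and 1754 CPM with mCherry. Cells without class II held 4215 and 4717 CPM of Mrc1 with Hevin and 3894 and 4522 CPM with mCherry. Ptprk, Pde7b, Stab1, Pf4, Igfbp4, Gpx3 and Cd38 stood at least 2.23-fold lower with class II. Mgp, an inhibitor of calcification, stood at least 6.11-fold lower, but outside the first Hevin library most of its UMIs lay in few cells: the 12 and 6 Hevin and 39 and 18 mCherry border macrophages with at least 2 thinned UMIs of endothelial markers held 3 and 717 Mgp UMIs with Hevin and 890 and 4065 with mCherry, and the 1000 and 787 Hevin and 1115 and 801 mCherry cells without such a UMI held 412 and 41 with Hevin and 73 and 64 with mCherry. In the first Hevin library, 344 Mgp UMIs lay in the 16 cells described below whose only rule gene was F13a1. Of the 6 dendritic cell markers, Cd209a and the cytokine receptor Flt3 were higher in cells with class II. Flt3 stood there at 12.4 and 10.7 CPM with Hevin and 21 and 44.8 CPM with mCherry, and in cells without class II at 3.96 and 2.71 CPM with Hevin and 1.29 and 1.18 CPM with mCherry. The transcription factor Zbtb46 stood at 24.8 and 36.3 CPM with Hevin and 25.9 and 17.4 CPM with mCherry with class II, and at 31.3 and 35.9 CPM with Hevin and 34.7 and 36.0 CPM with mCherry without. Xcr1, Clec9a and Itgae were at or near 0 in cells with class II, with 0 UMIs of Xcr1, 1 UMI of Clec9a and at most 2 UMIs of Itgae per library. These differences describe cells split on class II and carry no test.

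**Figure D2:**
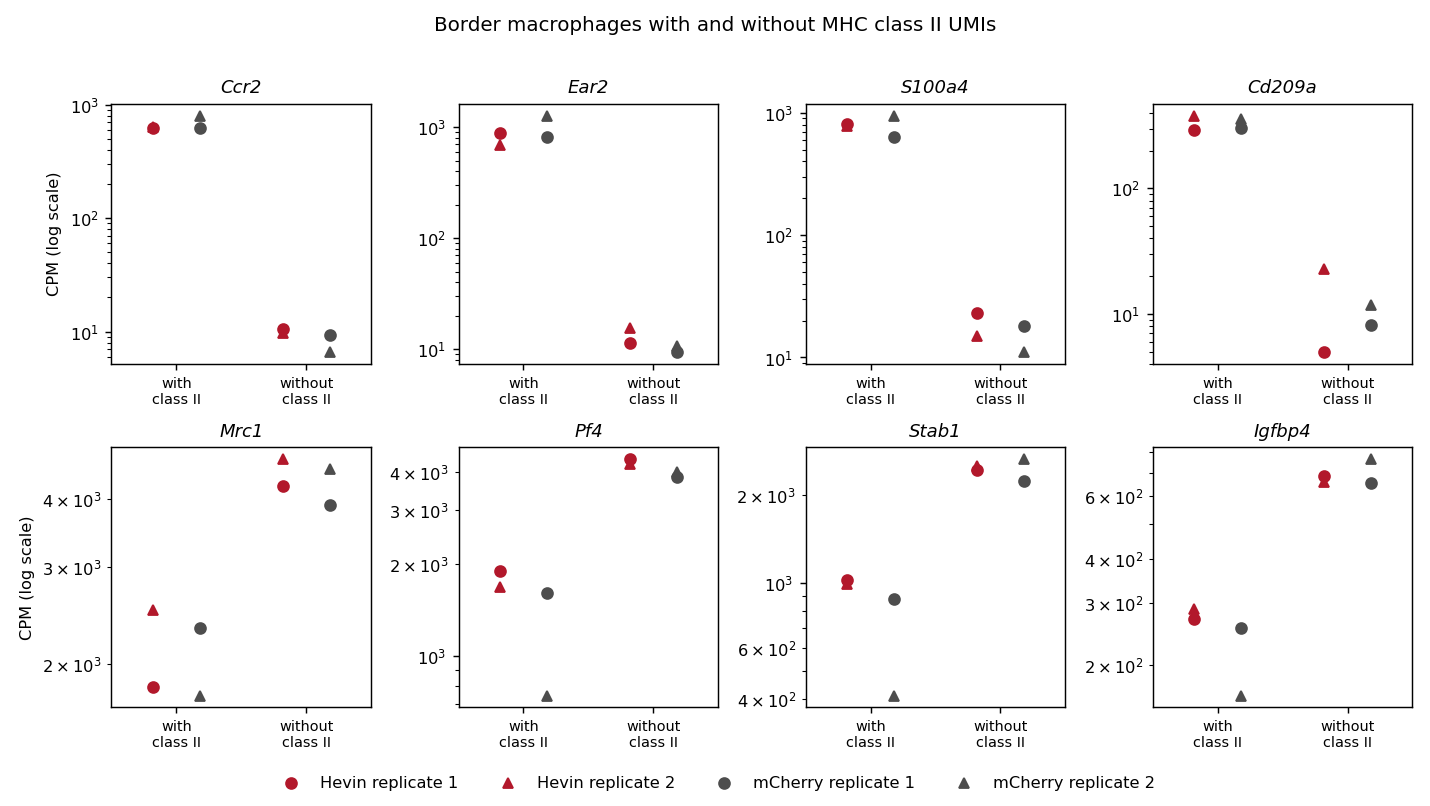
CPM on a log scale of 8 genes in border macrophages with at least 2 class II UMIs after thinning (left) and without any (right), per library; red marks Hevin and grey mCherry libraries. Ccr2, Ear2, S100a4 and Cd209a stand higher with class II in all 4 libraries, and Mrc1, Pf4, Stab1 and Igfbp4 lower.

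In a handful of cells F13a1 was the only rule gene detected: 16 and 8 Hevin cells and 6 and 8 mCherry cells. F13a1 is also a gene of monocytes, and in Lyz2, Ccr2 and Mrc1 these 38 cells went against the label. Whether they were monocytes was not tested. They held 5499 and 13574 CPM of Lyz2 (lysozyme) with Hevin and 13446 and 13792 CPM with mCherry. The other border macrophages held 3181 and 3181 CPM of Lyz2 with Hevin and 2266 and 2227 CPM with mCherry. The Ccr2 of the F13a1-only cells stood at 433 and 1708 CPM with Hevin and 948 and 1339 CPM with mCherry. Their Mrc1 stood at 755 and 613 CPM with Hevin and 627 and 713 CPM with mCherry. Their Ly6c2 stood at 128 and 0 CPM with Hevin and 160 and 261 CPM with mCherry. Their Plac8 stood at 337 and 0 CPM with Hevin and 204 and 626 CPM with mCherry. The other border macrophages held 6.05 and 14.6 CPM of Plac8 with Hevin and 10.5 and 8.39 CPM with mCherry. Their Cd74 stood at 3460 and 14253 CPM with Hevin and 11361 and 15340 CPM with mCherry. The other border macrophages held 1305 and 1275 CPM of Cd74 with Hevin and 865 and 1064 CPM with mCherry. The 16 cells of the first Hevin library held the least Lyz2, Ccr2 and Cd74 and the most Apoe, at 10644 CPM. Over all border macrophages the 5 monocyte markers summed to 90.7 to 106 CPM in the 4 libraries, the 6 dendritic markers to 72.9 to 99.9 CPM, the 6 neutrophil markers to 10.9 to 33.2 CPM and the 7 lymphocyte markers to at most 1.78 CPM.

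Some border macrophage genes varied more between replicates than between groups. Retnla, a secreted resistin-like protein, stood at 2368 and 8367 CPM in Hevin border macrophages and at 3978 and 5093 CPM in mCherry border macrophages. The chemokine Ccl8 stood at 476 and 2578 CPM with Hevin and at 1455 and 1569 CPM with mCherry, and complement C4b at 207 and 529 CPM with Hevin and at 336 and 399 CPM with mCherry. For each of the 3 genes the first Hevin library was the lowest and the second Hevin library the highest of the 4.

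The number of border macrophages relative to other cells depended on the denominator. They were 5.71% and 6.49% of kept cells in the Hevin libraries and 7.38% and 8.02% in the mCherry libraries, with exact 95% binomial intervals of 5.39% to 6.05% and 6.07% to 6.93% with Hevin and of 7.0% to 7.77% and 7.51% to 8.55% with mCherry. The means were 6.10% ± 0.548 with Hevin and 7.70% ± 0.452 with mCherry (SD, n = 2 libraries each; log2 ratio −0.34, exact two-sided permutation p = 0.333, the smallest that 2 against 2 libraries allow). Per 100 P2ry12-high cells there were 18.0 and 15.3 border macrophages in the Hevin libraries and 8.99 and 9.74 in the mCherry libraries (log2 ratio 0.83, exact permutation p = 0.333). P2ry12-high cells numbered 6248 and 5538 with Hevin and 14631 and 8934 with mCherry, and the Apoe-high set 7539 and 4521 with Hevin and 29 and 16 with mCherry. Outside the Apoe-high set, border macrophages were 9.27% and 9.94% of kept cells with Hevin and 7.39% and 8.03% with mCherry, with means of 9.60% ± 0.470 with Hevin and 7.71% ± 0.452 with mCherry (SD, n = 2 each; log2 ratio 0.32, exact permutation p = 0.333).

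**Figure D3:**
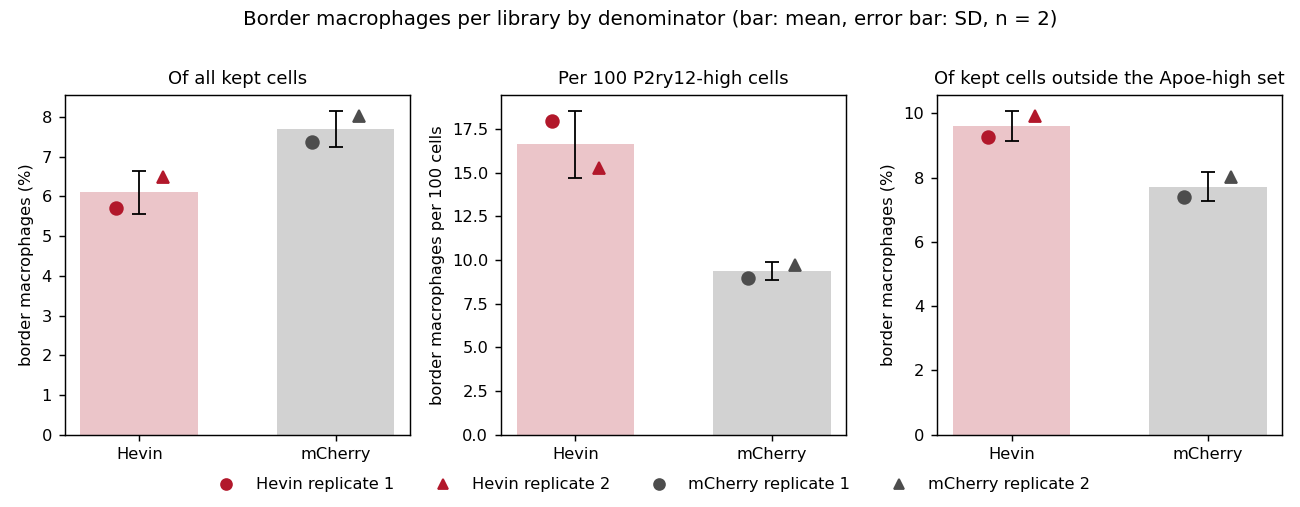
Border macrophages per library as a percentage of all kept cells, per 100 P2ry12-high cells, and as a percentage of kept cells outside the Apoe-high set; bars are means of 2 libraries, error bars SD and points libraries. The Hevin libraries stand below the mCherry libraries with the first denominator (6.10% against 7.70%) and above them with the other two.

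The ratio of shares of kept cells moved with the rule. With P2ry12 capped at 0.1% of UMIs it was 0.25 on the log2 scale, with at least 3000 UMIs per barcode it was −0.016, and with all cells thinned to 1000 UMIs, where members were taken at a marker sum of at least 2, it was −0.19. The intervals cover counting error alone.

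None of the genes that mark border macrophages beside the rule genes was called as changed with Hevin. Raw UMIs were summed per library over the border macrophages, edgeR's quasi-likelihood test was run on 13287 genes, and a gene was called at a Benjamini-Hochberg adjusted p below 0.05. In all, 32 genes were higher with Hevin (0.241% of those tested) and 156 lower (1.17%). Of the 19 border macrophage genes outside the rule, none was among them. At an unadjusted p below 0.05, 4 were higher and 0 lower, against 5.14% of all genes tested higher and 8.21% lower, the shares beside which each later count at an unadjusted p stands, and DESeq2 called 1 of them, Ms4a7, higher. Their median log2 fold change was 0.15, beside 0.0044 over all genes tested, and was −0.026 without the largest barcodes described below.

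Mrc1, with the levels given above, had a log2 fold change of 0.15 ± 0.11 (edgeR adjusted p = 0.659). Stab1, a scavenger receptor, stood at 2243 and 2350.1 CPM with Hevin and 2126 and 2398 CPM with mCherry (0.11 ± 0.10, edgeR adjusted p = 0.737). Dab2, an adaptor of endocytosis, stood at 1905 and 1979 CPM with Hevin and 1839 and 1987 CPM with mCherry (0.11 ± 0.09, edgeR adjusted p = 0.707). The groups overlapped for each of the 3 genes. For Pf4 both Hevin values, 4104 and 3972 CPM, lay above the mCherry values, 3734 and 3637 CPM, with a log2 fold change of 0.22 ± 0.09 (edgeR adjusted p = 0.347). A p that misses the threshold does not show that the levels were alike.

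Receptors and handling genes known for these cells were likewise mostly uncalled. Of 14 scavenger and endocytic receptors tested, 0 were higher and 1 lower, the transferrin receptor Tfrc, whose call was lost without the largest barcodes. At an unadjusted p below 0.05, 2 of the 14 were higher and 3 lower, and DESeq2 called Tfrc alone. Of 7 Fc receptors and 16 complement genes none was called by edgeR or DESeq2 (at an unadjusted p below 0.05, 1 Fc receptor and 2 complement genes were higher and 0 and 2 lower). Of 6 genes of the CSF1 receptor and its ligands and relatives none was called by either tool, with 1 higher and 1 lower at an unadjusted p below 0.05, and Csf1r itself stood at 2024 and 2281 CPM with Hevin and 2338 and 2390.1 CPM with mCherry. Slc40a1, the iron exporter, stood at 203 and 233 CPM with Hevin and 309 and 285 CPM with mCherry, lower in both Hevin libraries but not called (−0.36 ± 0.10, edgeR adjusted p = 0.173).

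Among the called genes, those higher with Hevin were led by genes of the Apoe-high set. Axl (chromosome 7, 25757273 to 25788705, genome build mm10), a receptor kinase that binds Gas6 on dying cells, stood at 88.1 and 73.4 CPM in Hevin border macrophages, against 22.2 and 30.3 CPM in mCherry border macrophages. Both Hevin libraries lay above both mCherry libraries, a 3.29-fold difference (log2 1.72 ± 0.18, edgeR adjusted p = 0.0154). Cyp4f18 (chromosome 8, 71988482 to 72009626), a cytochrome P450 that inactivates leukotriene B4, stood at 37.4 and 20.7 CPM with Hevin and 5.26 and 6.83 CPM with mCherry (log2 2.36 ± 0.33, edgeR adjusted p = 0.0312). Gpr65 (chromosome 12, 98268635 to 98276644), a proton-sensing receptor, stood at 163 and 121 CPM with Hevin and 51.8 and 60.9 CPM with mCherry (log2 1.42 ± 0.17, edgeR adjusted p = 0.0216). Neither gene's groups overlapped, nor did those of Axl, which with Hevin above held for 12% of all genes tested.

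The other genes of largest fold were Ms4a4c (log2 1.94 ± 0.23), the scavenger receptor and chemokine Cxcl16 (1.59 ± 0.17), Gm36161 (1.58 ± 0.20), Gm21188 (1.58 ± 0.18), the apolipoprotein Apoc1 (1.47 ± 0.14), the membrane-bound matrix metalloproteinase Mmp14 (1.41 ± 0.19), AU020206 (1.36 ± 0.13), the SLAM-family receptor Ly9 (1.31 ± 0.15) and AI662270 (1.14 ± 0.14). Cxcl16 overlaps Zmynd15, another called gene, on the opposite strand, and strand use in counting is not given, so their reads cannot be told apart. Gm36161 and Gm21188 lie beside each other on chromosome 13, and how reads were divided between them is not given. Among 8 markers of Apoe-high macrophages, 5 were higher with Hevin (Axl, Cyp4f18, Gpr65, Klra2 and Runx3) and 0 lower, with a median log2 fold change of 1.57 (at an unadjusted p below 0.05, 8 higher and 0 lower, and by DESeq2 7 and 0). The Apoe-high set held 7539 and 4521 cells with Hevin and 29 and 16 with mCherry. Its markers were listed with earlier results of these data known, so their count is given as a description. Apoe itself, the lipid carrier, stood at 16139.5 and 14568 CPM with Hevin and 11202 and 10925 CPM with mCherry, and missed the threshold (log2 0.56 ± 0.10, edgeR adjusted p = 0.0595).

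**Figure D4:**
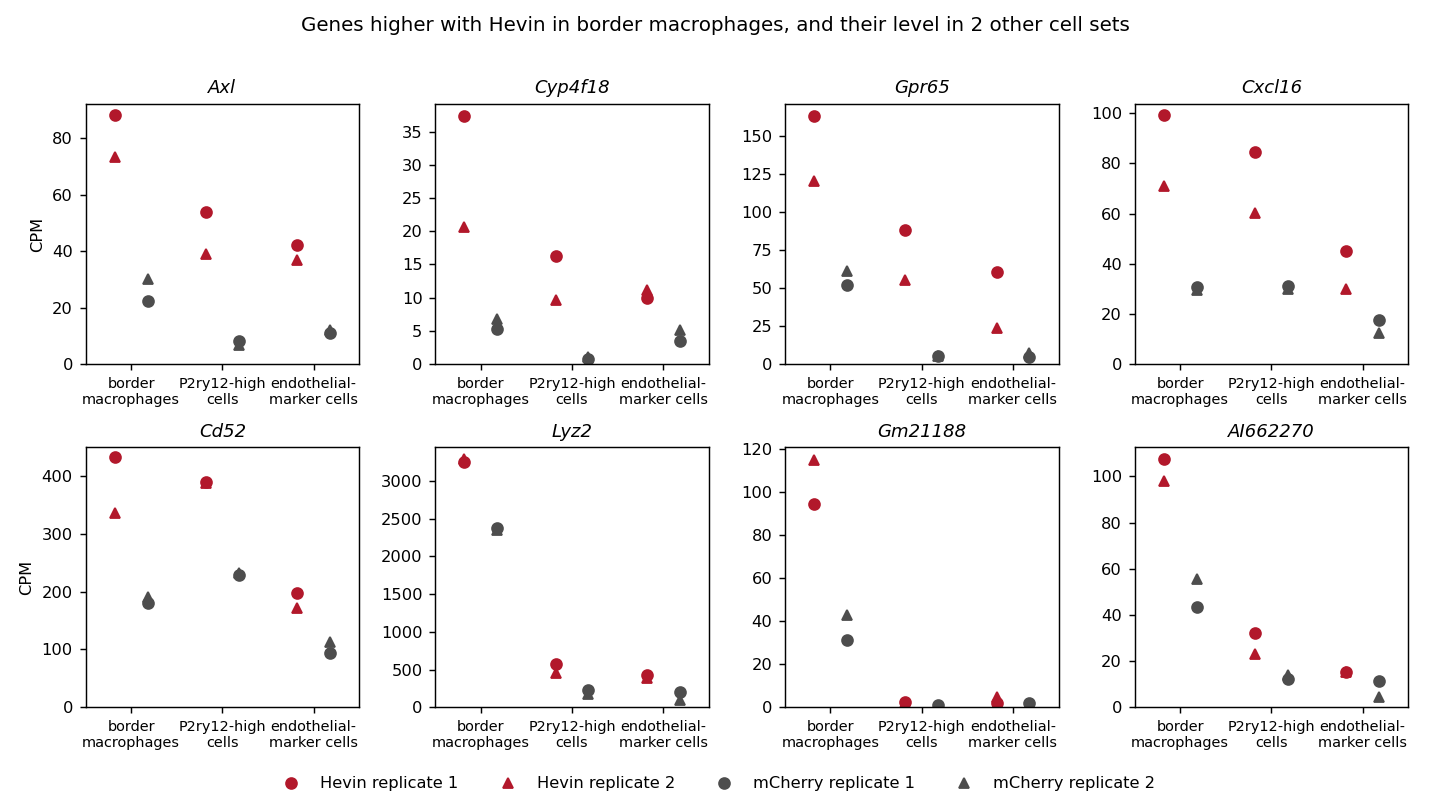
CPM per library of 8 genes called higher with Hevin in border macrophages, shown in border macrophages, P2ry12-high cells and endothelial-marker cells; red marks Hevin and grey mCherry libraries. In border macrophages both Hevin points lie above both mCherry points for every gene, and Axl, Gpr65 and Lyz2 also stand higher with Hevin in the other 2 cell sets.

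The genes higher with Hevin were abundant in the Apoe-high set and had higher values with Hevin in other cells too. Of the 32 genes, 28 stood higher in the Apoe-high set of both Hevin libraries than in the border macrophages of the same library without the largest barcodes described below, where 24.1% of all genes tested did, and Axl stood there at 246 and 309 CPM. In endothelial-marker cells Axl stood at 42.0 and 36.7 CPM with Hevin and 10.9 and 12.2 CPM with mCherry. Gpr65 stood in them at 60.6 and 23.6 CPM with Hevin and 4.79 and 7.07 CPM with mCherry. The rule for endothelial-marker cells does not leave out cells of the Apoe-high set. At full depth Ms4a7 was detected in 36.4% and 36.1% of them with Hevin and in 9.43% and 5.35% with mCherry. Of the 32 genes, 25 lay above both mCherry libraries in both Hevin libraries in endothelial-marker cells, where 15.1% of all genes tested did, and 31 did so in P2ry12-high cells, where 13.1% of all genes did. The CPM difference between groups was larger in border macrophages than in both of these sets for 31 of the 32 genes. The 32 genes were called on their change in border macrophages, and this share over all genes was not taken. The part of RNA shared between cells of a library in these calls was not tested.

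When border macrophages holding any UMI of Gpr65, Runx3, Cyp4f18, Klra2 or Apoc2 were left out, 615 of 1123 and 450 of 846 Hevin and 986 of 1316 and 581 of 870 mCherry cells remained, and 7 genes were higher (0.0587% of 11930 tested) and 137 lower (1.15%). This alternative was chosen after the data had been seen, and Gpr65, Runx3, Cyp4f18 and Klra2 are themselves called higher with Hevin, so the cells it left out depend on the outcome and its calls are given as a description. The 6 genes that were also among the 32 were AI662270, AU020206, Cd52, Gm21188, Gm36161 and Lyz2, named after their values were seen. Gm21188 stood at 94.5 and 115 CPM in Hevin border macrophages and 31.6 and 43.2 CPM in mCherry border macrophages, but at no more than 6.67 CPM in the Apoe-high set of the Hevin libraries, 4.98 CPM in endothelial-marker cells and 2.62 CPM in P2ry12-high cells. AI662270 stood at 107 and 97.9 CPM in Hevin and 43.5 and 55.7 CPM in mCherry border macrophages, and in endothelial-marker cells at 15.4 and 15.5 CPM with Hevin and 11.3 and 4.50 CPM with mCherry. Lyz2, lysozyme, stood at 3249 and 3287 CPM with Hevin and 2372 and 2349.7 CPM with mCherry (log2 0.55 ± 0.08, edgeR adjusted p = 0.0391), and its call was lost without the largest barcodes described below (log2 0.42 ± 0.09, edgeR adjusted p = 0.105). Cd52, a surface glycopeptide of leukocytes, stood at 432 and 336 CPM with Hevin and 181 and 190.1 CPM with mCherry (log2 1.14 ± 0.13, edgeR adjusted p = 0.0215).

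Most genes lower with Hevin were more abundant in endothelial-marker cells than in border macrophages. The 12 of largest fold were Rgs5, a regulator of G protein signalling in pericytes (log2 −2.72 ± 0.26), the carbonic anhydrase Car4 (−2.62 ± 0.36), the connexin Gjc1, the transcription factors Foxq1 and Sox18, the cadherin Cdh2, Nkd1, the lipid transporter Mfsd2a, the thyroid hormone transporter Slco1c1 (−2.20 ± 0.09), Septin4, Apcdd1 and the amino acid transporter Slc38a3 (−2.12 ± 0.20). Slco1c1 (chromosome 6, 141524368 to 141570177) stood at 40.2 and 42.0 CPM with Hevin, against 206 and 195 CPM with mCherry (edgeR adjusted p = 0.00149), with no overlap of the groups, which with Hevin below held for 32.9% of all genes tested. Cldn5, a tight junction protein of endothelium, stood at 103 and 195 CPM with Hevin and 587 and 496 CPM with mCherry (log2 −1.78 ± 0.27, edgeR adjusted p = 0.0389). Of the 156 lower genes, 134 (85.9%) stood in endothelial-marker cells at no less than 2 times their border macrophage level in every library (10 CPM added, largest barcodes left out), which held for 7.26% of all genes tested. The 6 endothelial markers summed to 265 and 570.4 CPM in Hevin border macrophages, against 1421 and 1343 CPM in mCherry border macrophages, and 2 of the 6 were called lower (Cldn5 and Pecam1). The 6 mural markers, of pericytes and smooth muscle, summed to 33.6 and 36.7 CPM with Hevin and 171 and 746 CPM with mCherry, and Rgs5 and Vtn of the 5 tested were called lower. Erythroid transcripts stood at 1327 CPM in the first mCherry library, against 18.8 CPM in the second and at most 6.58 CPM in the Hevin libraries.

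The endothelial transcripts sat in few barcodes. Border macrophage barcodes above 3 times the median UMIs of their library numbered 21 and 12 with Hevin (1.87% and 1.42% of the cells) and 44 and 18 with mCherry (3.34% and 2.07%). They held 60.0% and 83.3% of the endothelial-marker UMIs of the Hevin border macrophages and 89.4% and 91.2% of those of the mCherry border macrophages. Of the mural-marker UMIs they held 12.6% and 6.67% with Hevin and 80.1% and 94.5% with mCherry, and without them erythroid transcripts still stood at 255 CPM in the first mCherry library. The largest held 57972 and 105692 UMIs in the Hevin libraries and 98437 and 162785 UMIs in the mCherry libraries. Of the 95 such barcodes, 50 had at least 4 UMIs of endothelial markers beside those of the rule. Whether they were pairs of cells was not tested.

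Without these barcodes, an alternative chosen after the data had been seen, the vascular calls were mostly lost. Of 12547 genes tested, 28 were higher (0.223%) and 40 lower (0.319%) with Hevin, the 40 including P2ry12, which the rule caps and which is left out of the counts that follow. Slco1c1 then stood at 20.2 and 11.6 CPM with Hevin and 21.2 and 16.7 CPM with mCherry (log2 −0.20 ± 0.25, edgeR adjusted p = 0.932). Cldn5 stood at 30.5 and 18.4 CPM with Hevin and 58.9 and 34.7 CPM with mCherry (log2 −0.89 ± 0.27, edgeR adjusted p = 0.254). Rgs5 turned in direction, to a log2 fold change of 0.22 ± 0.30. Of the 12 lower genes of largest fold, 10 were not called and 2, Gjc1 and Foxq1, were too low to be tested. None of the 6 endothelial or 4 mural markers tested was called by edgeR (at an unadjusted p below 0.05, 0 and 0 higher and 3 and 1 lower, against 4.38% of all genes tested higher and 4.06% lower; DESeq2 was not run without these barcodes). Of the 32 higher genes 25 remained, and of the 156 lower genes 22, among them Egfl7 and Ecscr, genes of endothelium named after their values were seen. Ecscr stood at no less than 2 times its border macrophage level in P2ry12-high and endothelial-marker cells of every library (10 CPM added). Egfl7 stood at 58.3 and 57.4 CPM with Hevin and 98.7 and 93.0 CPM with mCherry (log2 −0.66 ± 0.10, edgeR adjusted p = 0.0129). Tfrc, Mfge8, Ackr3, Id3, Klf2 and Fn1, called lower among all border macrophages, were not called without these barcodes, and Sparcl1, called lower in all border macrophages (log2 −1.64 ± 0.14, edgeR adjusted p = 0.0131), was then at −0.38 ± 0.29 (edgeR adjusted p = 0.859).

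The genes lower with Hevin once the largest barcodes were out were mostly more abundant in P2ry12-high cells. Of the 39 beside P2ry12, 25 stood at no less than 2 times their border macrophage level in P2ry12-high cells of every library (10 CPM added), which held for 2.14% of all genes tested outside the rule. Nav3, Slc2a5 and Adgrg1 were also called with the largest barcodes kept in. The values of these genes in this paragraph are those of all border macrophages. Nav3, a neuron navigator family gene that was abundant in P2ry12-high cells, stood at 38.1 and 33.1 CPM in Hevin border macrophages, against 98.2 and 88.4 CPM in mCherry border macrophages (log2 −1.30 ± 0.12, edgeR adjusted p = 0.0131). Slc2a5, a fructose transporter of microglia, stood at 24.4 and 14.9 CPM with Hevin and 62.2 and 50.2 CPM with mCherry (log2 −1.43 ± 0.23, edgeR adjusted p = 0.0425). Adgrg1, an adhesion receptor, stood at 44.9 and 53.4 CPM with Hevin and 128 and 109 CPM with mCherry (log2 −1.19 ± 0.13, edgeR adjusted p = 0.0166). The groups did not overlap for any of the 3 genes.

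Without the largest barcodes the 12 lower genes of largest fold were Calml4 (log2 −1.89 ± 0.34), Slc2a5 (−1.54 ± 0.20), Tmem44, Nav3 (−1.38 ± 0.11), the lipase Liph, Nav2, the neurobeachin gene Nbea, the collagen Col27a1, Adgrg1 (−1.21 ± 0.11), Arhgef40, Sprr2a2 and the growth factor Tgfa (−1.15 ± 0.18). Of 10 microglial markers tested, 4 were lower (Sall1, Siglech, Slc2a5 and Sparc) and 0 higher (0 higher and 6 lower at an unadjusted p below 0.05), with a median log2 fold change of −0.48, beside −0.0042 over all genes. In all border macrophages 3 of the 10 were lower, without Siglech. P2ry12, capped by the rule, is left out of these counts. Sall1, a transcription factor of microglia, stood in all border macrophages at 25.9 and 21.4 CPM with Hevin and 55.8 and 48.7 CPM with mCherry.

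The values of these transcripts were lower with Hevin in endothelial-marker cells too. Slc2a5 stood there at 13 and 17.4 CPM with Hevin and 61.0 and 48.2 CPM with mCherry, and Sall1 at 17.9 and 24.3 CPM with Hevin and 60.6 and 55.9 CPM with mCherry. Of the 39 genes, 26 lay below both mCherry libraries in both Hevin libraries in endothelial-marker cells, where 19.8% of all genes tested did. P2ry12-high cells were 6248 of 19653 and 5538 of 13036 kept cells with Hevin and 14631 of 17833 and 8934 of 10849 with mCherry. The part of microglial RNA outside microglia in these calls was not tested.

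**Figure D5:**
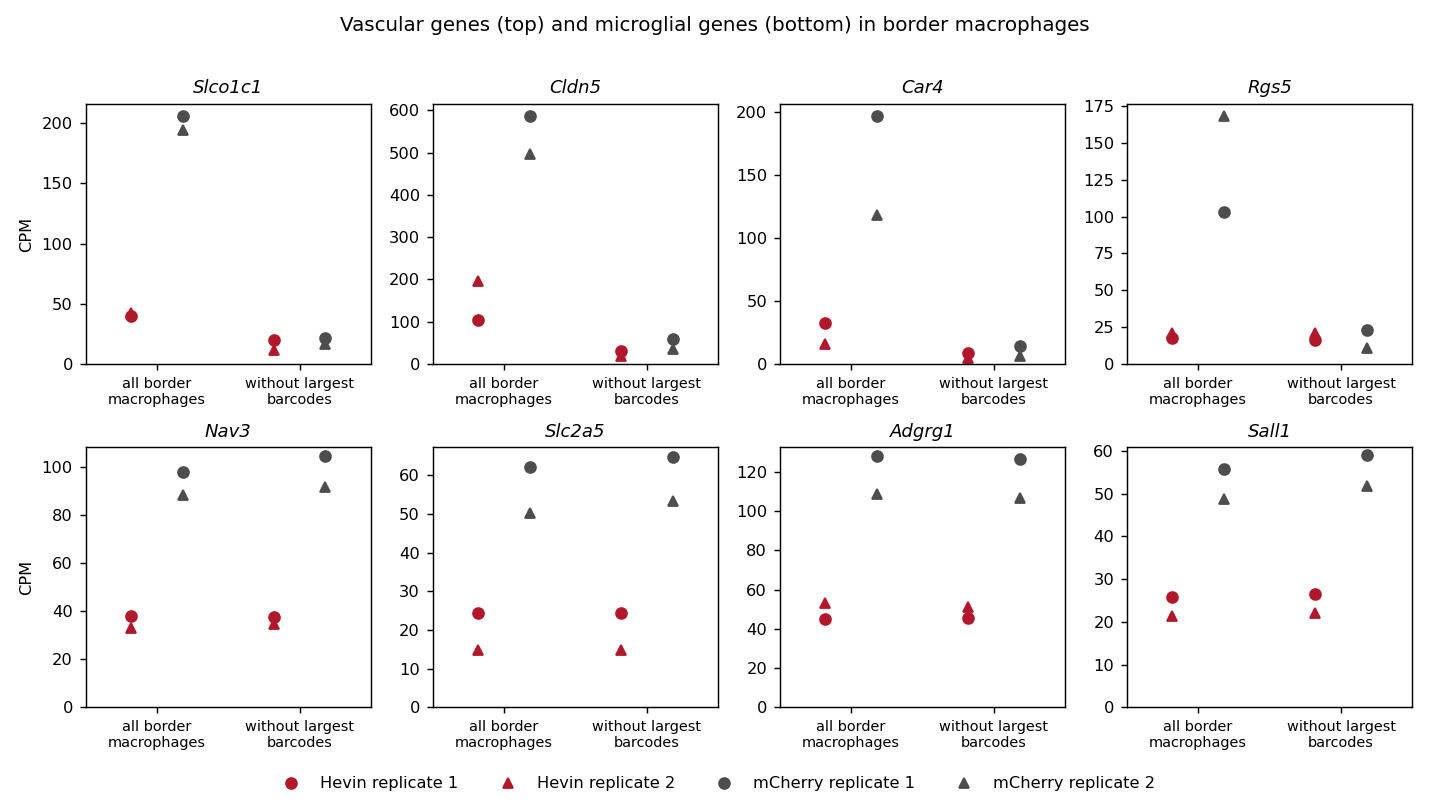
CPM per library of 4 vascular genes (top) and 4 microglial genes (bottom) in all border macrophages and without the barcodes above 3 times the median UMIs of their library; red marks Hevin and grey mCherry libraries. The vascular genes stand lower with Hevin in all border macrophages and fall to lower levels in the mCherry libraries once the largest barcodes are out. Slco1c1 and Cldn5 then fall in the Hevin libraries too, and Cldn5 still stands lower with Hevin. Nav3, Slc2a5, Adgrg1 and Sall1 stand lower with Hevin both ways.

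Among genes of antigen presentation 1 was called. Of 13 class II genes, H2-DMa, which loads peptide onto class II, was higher, at 183 and 152 CPM with Hevin and 89.2 and 90.8 CPM with mCherry (log2 0.98 ± 0.12, edgeR adjusted p = 0.0202). At an unadjusted p below 0.05, 7 of the 13 were higher and 0 lower, and 4 and 1 without the largest barcodes. The log2 fold changes of 11 class II genes were above 0, with a median of 0.43, and 0.28 without the largest barcodes. Cd74, the invariant chain, stood at 1368 and 1407 CPM with Hevin and 965 and 1216 CPM with mCherry and was not called by edgeR (log2 0.43 ± 0.13, edgeR adjusted p = 0.198), though DESeq2 called it and H2-Eb1. Of 16 class I genes none was called by edgeR, 6 were higher and 0 lower at an unadjusted p below 0.05, and DESeq2 called H2-K1 and B2m higher. Their log2 fold changes were above 0 for all 16, where 50.7% of all genes tested were, with a median of 0.27, and for 14 when scaled by total counts alone. Of 19 interferon response genes none was called by edgeR, 4 were higher and 0 lower at an unadjusted p below 0.05, and DESeq2 called Bst2 higher.

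Ribosomal protein genes had small positive log2 fold changes that were not called. None of 78 passed the threshold with edgeR, 58 were higher and 0 lower at an unadjusted p below 0.05, DESeq2 called 12 higher, and 77 had log2 fold changes above 0, where 50.7% of all genes tested did, with a median of 0.29. Scaled by total counts alone, 73 were above 0, with a median of 0.20. The other cell sets had it too. In P2ry12-high cells 76 of 78 were above 0 (median 0.24), where 8054 of all 17054 genes tested were. In endothelial-marker cells 76 of 77 were above 0 (median 0.16), where 5520 of all 10759 genes tested were. Rplp1, a protein of the ribosomal stalk outside that list and named after its values were seen, was called higher, at 3579 and 3871 CPM with Hevin and 2433 and 2459 CPM with mCherry (log2 0.69 ± 0.09, edgeR adjusted p = 0.0257). It stood at 3123 and 3358 CPM with Hevin and 2091 and 2474 CPM with mCherry in endothelial-marker cells.

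Cell division genes were not called in border macrophages. None of 22 was called by edgeR or DESeq2, with 1 higher and 1 lower at an unadjusted p below 0.05. Thinned to 1000 UMIs, 1.53% and 1.65% of Hevin border macrophages and 1.52% and 1.03% of mCherry border macrophages held at least 2 UMIs of 11 mitotic and G2 genes. In P2ry12-high cells the same shares were 0.585% and 0.397% with Hevin and 0.554% and 0.481% with mCherry. The Apoe-high set of the Hevin libraries had shares of 0.736% and 1.11%. Endothelial-marker cells had 1.62% and 2.37% with Hevin (5 and 4 cells) and 0.673% and 2.14% with mCherry (2 and 4 cells). Of 13 chemokines tested, Cxcl16 alone was called, and DESeq2 also called Ccl12 higher. At an unadjusted p below 0.05, 5 of the 13 were higher and 0 lower, and 3 and 1 without the largest barcodes. Ccl12 stood at 742 and 638 CPM with Hevin and 399 and 536 CPM with mCherry (log2 0.65 ± 0.16, edgeR adjusted p = 0.136). Ccl24, a chemokine for eosinophils, stood at 189.9 and 214 CPM with Hevin and 248 and 233 CPM with mCherry (log2 −0.17 ± 0.09, edgeR adjusted p = 0.517).

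Genes of lipid handling, lectins, pattern recognition and transcription gave few calls. Of 18 lipid genes tested, Apoc1 was higher and 0 were lower (7 and 0 at an unadjusted p below 0.05), and DESeq2 called Apoe, Apoc1, Apoc4, Abca1 and Npc2 higher. Abca1, the cholesterol exporter, stood at 647 and 612 CPM with Hevin and 500.1 and 537 CPM with mCherry, without overlap of the groups (log2 0.37 ± 0.09, edgeR adjusted p = 0.136). Of 16 C-type lectins, Clec12a was higher, at 126 and 99.9 CPM with Hevin and 51.8 and 60.5 CPM with mCherry (log2 1.10 ± 0.15, edgeR adjusted p = 0.0285). At an unadjusted p below 0.05, 5 of these lectins were higher and 0 lower, and DESeq2 also called Clec4a2 higher. Log2 fold changes were above 0 for all 16, where 50.7% of all genes tested were, and for 11 without the largest barcodes. Of 17 genes of Toll-like receptor signalling, Tlr2, a receptor for bacterial lipoproteins, was higher, at 88.6 and 77.2 CPM with Hevin and 55.5 and 55.0 CPM with mCherry (log2 0.67 ± 0.11, edgeR adjusted p = 0.0472), and not called without the largest barcodes (log2 0.47 ± 0.10, edgeR adjusted p = 0.105). At an unadjusted p below 0.05, 5 of the 17 were higher and 0 lower, and 1 and 0 without the largest barcodes.

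Of 24 transcription factors of macrophages, Runx3 was higher and Id3, Klf2 and Sall1 were lower. Runx3 stood at 13.4 and 9.12 CPM with Hevin and 1.52 and 2.03 CPM with mCherry (log2 2.75 ± 0.37, edgeR adjusted p = 0.0285), and in the Apoe-high set of the Hevin libraries at 45.2 and 42.0 CPM. Klf2, a factor induced by flow in endothelium, stood at 56.6 and 62.7 CPM with Hevin and 119 and 129.9 CPM with mCherry (log2 −0.97 ± 0.10, edgeR adjusted p = 0.0158), and its log2 fold change without the largest barcodes was −0.34 ± 0.16. Of 12 genes of TGF-beta signalling, Pmepa1, a feedback inhibitor of the pathway, was higher, at 258 and 226 CPM with Hevin and 152 and 114 CPM with mCherry (log2 0.94 ± 0.15, edgeR adjusted p = 0.0407). Of 12 receptors and bridging proteins for dying cells, Axl was higher and Mfge8 lower, and Gas6, the ligand of Axl, stood at 947 and 1102 CPM with Hevin and 1013 and 1098 CPM with mCherry (log2 0.04 ± 0.10, edgeR adjusted p = 0.922).

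Genes that dissociation can induce were not called. None of 16 immediate early and heat shock genes passed the threshold with edgeR or DESeq2, with 1 higher and 0 lower at an unadjusted p below 0.05, and Fos stood at 13.6 and 18.7 CPM with Hevin and 14.5 and 12.4 CPM with mCherry. Of 19 growth factors and cytokines none was called by edgeR (4 higher and 4 lower at an unadjusted p below 0.05), and DESeq2 called Tgfb2 lower. Igf1, a growth factor abundant in border macrophages, stood at 452 and 685 CPM with Hevin and 498 and 574 CPM with mCherry, with the mCherry values inside the Hevin range (log2 0.17 ± 0.19, edgeR adjusted p = 0.794). Of 16 cholesterol synthesis genes none was called by edgeR or DESeq2, with 0 higher and 3 lower at an unadjusted p below 0.05.

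The Hevin effect differed from that in P2ry12-high cells for 27 genes. In P2ry12-high cells by themselves, 63 of 17054 genes were higher with Hevin (0.369%) and 5 lower (0.0293%), and in endothelial-marker cells 9 of 10759 were higher (0.0837%) and 7 lower (0.0651%). The difference was tested with both classes in one edgeR fit, with library as a block, over 15773 genes. None was called with a larger log2 fold change in border macrophages (316 at an unadjusted p below 0.05), and the 27 (0.171%) had a smaller one. Ms4a7 stood in border macrophages at 689 and 686 CPM with Hevin and 580.0 and 582 CPM with mCherry, and in P2ry12-high cells at 175 and 108 CPM with Hevin and 13.5 and 8.50 CPM with mCherry (log2 difference −3.37 ± 0.25, edgeR adjusted p = 0.00661). Cybb, the catalytic subunit of the phagocyte NADPH oxidase, stood in border macrophages at 434 and 468 CPM with Hevin and 307 and 336 CPM with mCherry, and in P2ry12-high cells at 113 and 70.9 CPM with Hevin and 9.82 and 6.57 CPM with mCherry (−2.92 ± 0.28, edgeR adjusted p = 0.0131).

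Both genes stood at 307 CPM or more in border macrophages of either group and at no more than 13.5 CPM in P2ry12-high cells of the mCherry libraries. In CPM, the mean of Cybb rose more with Hevin in border macrophages than in P2ry12-high cells, and that of Ms4a7 rose less. Clec12a, an inhibitory lectin receptor, Ms4a14, Mndal, the lectin Clec4n, the lipid A hydrolase Aoah and Gpr65 had the next largest differences, between −3.03 and −2.33 on the log2 scale. Axl, higher in both classes, differed by −0.93 ± 0.21 (edgeR adjusted p = 0.215), and Apoe, 1 of the 27, by −1.57 ± 0.14 (edgeR adjusted p = 0.00894).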

How the data were processed

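Matrices of whole UMI counts, by gene and barcode, were deposited by the authors for 4 libraries of CD11b-selected cortical cells, 2 with Hevin and 2 with mCherry. The submitters' processing notes name mm10. Aligner, annotation, strand setting and cell calling are not stated. No doublet caller was run. The member rule, comparison sets and gene lists were chosen with earlier results of these data known. Identifiers matched GENCODE M21 for 32098 of 32227 genes.

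Deposited counts were summed per library and tested with edgeR 4.0.16 (quasi-likelihood, TMM, filterByExpr, group alone, Benjamini-Hochberg threshold 0.05), after a check on simulated data. Fold changes are Hevin over mCherry, TMM-scaled, with standard errors; CPM are unscaled. DESeq2 1.42.0 was an alternative. Thinning drew 1000 UMIs per cell and left out 13 shallower members. Rule genes stayed in the fits, where P2ry12 was called once the largest barcodes were out, but no test of theirs is used, and splits of the members got none. Shares had exact permutation tests over libraries and Clopper-Pearson intervals.

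Named genes were the 12 of largest and 12 of smallest fold among those called with at least 10 CPM and groups that did not overlap, 8 for the difference between classes, 20 and 8 for identity, and members of the lists. Alternatives changed the rule, filters, scaling and libraries. Leaving out the largest barcodes or cells with UMIs of Apoe-high genes was added after the data had been seen.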

Additional observations from a re-analysis of the deposited data

Results flagged for a closer look

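The Hevin effect differed between border macrophages and P2ry12-high cells, by the edgeR interaction test, for 27 genes, all with the smaller log2 fold change in border macrophages. The 8 with the largest differences (border macrophages minus P2ry12-high cells) were Ms4a7 (log2 difference −3.37), Clec12a (−3.03), Cybb (−2.92), Ms4a14 (−2.86), Mndal (−2.52), Clec4n (−2.35), Aoah (−2.35) and Gpr65 (−2.33). Clec12a stood in border macrophages at 126 and 99.9 CPM with Hevin and 51.8 and 60.5 CPM with mCherry, and in P2ry12-high cells at 42.0 and 23.9 CPM with Hevin and 2.29 and 1.41 CPM with mCherry. Aoah stood in border macrophages at 257 and 291 CPM with Hevin and 218 and 237 CPM with mCherry, and in P2ry12-high cells at 44.1 and 28.9 CPM with Hevin and 6.06 and 5.24 CPM with mCherry. In CPM, the mean of both genes rose more in border macrophages. The smaller log2 fold change there goes with a higher mCherry level and does not show a smaller rise in CPM. In endothelial-marker cells Aoah stood at 23.5 and 23 CPM with Hevin and 4.36 and 3.86 CPM with mCherry.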

How the results depend on the processing

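The 12 named genes higher with Hevin kept their direction wherever an alternative gave a value. Calls were lost for Mmp14 with P2ry12 below 0.1%, for Apoc1 and Mmp14 at a marker sum of at least 8, and, without cells holding UMIs of Apoe-high genes, for Ms4a4c (log2 1.72, edgeR adjusted p = 0.109), Axl (1.45, 0.0572), Cxcl16 (1.33, 0.0504), Ly9 (1.26, 0.0684), Apoc1 (0.65, 0.351) and Mmp14 (0.60, 0.509). The counts of genes higher and lower with Hevin (32 and 156) were 73 and 252 with DESeq2, 58 and 473 with P2ry12 below 0.1%, 65 and 401 with at most 5% mitochondrial UMIs, and 295 and 865 with no filter on low counts. The lower count was 79 at a marker sum of at least 8, 241 scaled by total counts, 31 without cells holding UMIs of another class and 40 without the largest barcodes, where Rgs5 reversed to 0.22. The higher count was 7 without cells holding UMIs of Apoe-high genes. Leaving out 1 library gave 22 to 180 higher and 220 to 487 lower genes, with 72 and 285 without the first Hevin library, 180 and 487 without the second, and 40 and 271 without the second mCherry library. Without the largest barcodes the same 3 omissions gave 140 and 156, 202 and 170, and 57 and 112, and omitting the first mCherry library gave 27 and 48. A lone library is then assumed to vary like the other group. Same-numbered libraries correlated at 0.33 in their deviations over 2 pairs, and no label ties a number to a day or litter, so the numbers were not taken to pair the libraries. With a replicate block the counts were 85 and 385. For the difference from P2ry12-high cells (0 larger, 27 smaller), leaving out 1 library gave 0 to 6 and 21 to 145, with 6 and 135 without the second Hevin library, 3 and 145 without the first mCherry library and 0 and 85 without the second. The counts were 38 and 518 with no filter, 1 and 50 at a marker sum of at least 8, 1 and 54 without the largest barcodes, and 12 smaller among genes of at least 10 CPM. Log2 ratios of shares of kept cells were −0.49 at a marker sum of at least 8, 0.25 with P2ry12 below 0.1%, −0.016 at 3000 UMIs or more and −0.19 thinned, with members taken at a marker sum of at least 2. Per P2ry12-high cell they were 0.66, 1.41 and 1.60 in the first 3 settings, and outside the Apoe-high set 0.16, 0.90 and 0.82. Beyond the removed cells, libraries or genes, the causes were not tested. With 2 libraries a group, the spread rests on few values, and removing cells with UMIs of another class left 900 and 683 Hevin but 535 and 644 mCherry cells.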
